A study of Mus musculus with 6 samples.

Results

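The genes described here are the cytosolic heat shock chaperones Hspa1a, Hspa1b, Hspa8, Hspb1, Hspb8, Hsp90aa1, Hsp90ab1, Dnajb1 and Hsph1, together with Hsf1, the transcription factor that controls the heat-inducible ones. They are a list of names, with no measured value in the rule, and all 10 are among the 11835 genes that the deposited transcripts map to. RNA was sequenced from C2C12 cells, a mouse myoblast line that fuses into myotubes when serum is lowered. In 3 libraries (siNC) the cells had received NC siRNA, and in 3 (siCNN3) CNN3 siRNA, which targets the transcript of the actin-binding protein calponin 3. Both groups carry a transfected siRNA, were grown in high-glucose medium with fetal bovine serum and were differentiated in horse serum. The methods describe the sequenced cells as differentiating myoblasts, whereas the cell type on the labels is mouse myotube. Since 1 cell line was used and separate cultures are not described for the libraries, the p-values measure only the spread between these libraries.

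Heat shock chaperones bind proteins that are unfolded, newly made or damaged, and keep them from aggregating until they are folded, assembled or degraded. HSP70 proteins work in cycles of ATP binding and hydrolysis that are started by HSP40 proteins and reset by nucleotide exchange factors such as HSP110, HSP90 proteins mature kinases and steroid receptors, and small heat shock proteins hold unfolded clients without using ATP. Under stress HSF1 forms trimers that bind heat shock elements, which are inverted repeats of GAA, and raises transcription of the inducible members, while Hspa8 and Hsp90ab1 are expressed in unstressed cells. In muscle, HSPB8 acts with BAG3 and HSP70 in the disposal of damaged sarcomere proteins, and HSPB1 binds actin and intermediate filaments.

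Promoters are shown for the HSP70 pair, whose levels moved together from library to library, and for the 2 small heat shock genes, whose fitted differences between the groups had opposite signs. The RefSeq tables, with coordinates on GRCm38.p6, hold promoter entries for 6 of the 10 genes, which are Hspa1a, Hspa1b, Dnajb1, Hsph1, Hspb1 and Hspb8. The 250 bases before the start of Hspa1a (chr17:34972157-34972406, minus strand) and of Hspa1b (chr17:34959239-34959488, minus strand) differed at 3 positions and were 98.8% identical. With positions counted back from the start, the base of Hspa1a given first and that of Hspa1b last, the differences were C207T, T204C and T2G, which are in capitals.
Hspa1a: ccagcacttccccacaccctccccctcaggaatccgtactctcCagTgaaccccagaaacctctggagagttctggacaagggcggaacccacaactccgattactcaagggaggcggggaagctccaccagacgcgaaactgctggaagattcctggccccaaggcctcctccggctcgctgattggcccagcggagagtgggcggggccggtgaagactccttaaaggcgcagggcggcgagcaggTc
Hspa1b: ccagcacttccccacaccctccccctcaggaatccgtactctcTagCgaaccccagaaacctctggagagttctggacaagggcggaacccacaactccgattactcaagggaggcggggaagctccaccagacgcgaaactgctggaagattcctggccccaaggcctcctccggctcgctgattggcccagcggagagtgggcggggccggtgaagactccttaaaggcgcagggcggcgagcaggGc

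For the small heat shock genes, the 250 bases before the start of Hspb1 (chr5:135887669-135887918, plus strand) and of Hspb8 (chr5:116422865-116423114, minus strand) are given with matches to a pair of inverted repeats in capitals.
Hspb1: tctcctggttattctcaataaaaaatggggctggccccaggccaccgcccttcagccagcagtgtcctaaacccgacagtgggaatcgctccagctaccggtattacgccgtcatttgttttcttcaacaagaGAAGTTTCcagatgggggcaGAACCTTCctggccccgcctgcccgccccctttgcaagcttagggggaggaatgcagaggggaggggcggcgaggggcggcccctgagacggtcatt
Hspb8: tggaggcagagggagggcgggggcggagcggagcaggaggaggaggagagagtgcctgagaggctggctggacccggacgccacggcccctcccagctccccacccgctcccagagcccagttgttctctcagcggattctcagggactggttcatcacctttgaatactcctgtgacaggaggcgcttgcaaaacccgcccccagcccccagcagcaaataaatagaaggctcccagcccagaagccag

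The letters searched on both strands were GAANNTTC and TTCNNGAA, each a pair of heat shock element units, and GAANNTTCNNGAA, which holds 3 units and contains the others. Of 32851 promoters of the same length in the table, 6.69% hold the first, 7.17% the second, 12.8% either of them and 0.466% the third. The promoters of Hspa1a and Hspa1b each have 1 match, GAAGATTC, whose first base lies 104 bases before the start. That of Hspb1 has 2 matches, GAAGTTTC at 117 and GAACCTTC at 97 bases before the start. That of Hsph1 has TTCTCGAA, 33 or 54 bases before the start, depending on which of its 2 listed starts is used. No match lies in these windows of Hspb8 or Dnajb1, and 0 of the 6 genes have the form with 3 units.

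The deposited values are FPKM, which scale fragments by transcript length and by the mapped fragments of a library, so they compare levels between genes per length. Values were summed over the transcripts of each gene, and 11593 genes whose mean reached 0.5 FPKM, all 10 chaperone genes among them, were tested with limma on log2(FPKM + 1). A gene is called at an adjusted p below 0.05 over all genes tested. In siCNN3, 1.73% of the genes tested were called higher and 0.336% were called lower. Cnn3 itself had FPKM of 62.8, 61.36 and 62.82 in siNC, with 19.04, 39.19 and 25.56 in siCNN3, which did not overlap and left 44.8% of the siNC mean, but with an adjusted p of 0.0669 it was not called. Of 10 myotube markers tested, 5 were called lower and 0 higher. The summed level of the 11 listed myotube markers ran from 176.2 to 207 FPKM in siNC and from 101.2 to 121.1 FPKM in siCNN3. Ckm, listed but not tested, was at 0 in 2 siCNN3 libraries, and Ryr1 was not listed. Of 8 interferon response genes, 6 were called higher, with a summed level of 20.55, 359.8 and 97.34 FPKM in siNC and 3228, 3023 and 1566 FPKM in siCNN3. Of 7 blood and immune cell markers tested, 2 were called lower, both globin genes. The summed level of that list ran from 238.8 to 662.7 FPKM in siNC and from 56.83 to 85.41 FPKM in siCNN3, while Ptprc, Adgre1, Csf1r, Itgam and Cd3e were not listed. Of the called markers, Acta1 kept its call with each library left out, whereas Hbb-bs, Cxcl10 and Oas1a lost theirs without siNC 1, siNC 3, siCNN3 1 or siCNN3 2 (adjusted p from 0.0556 to 0.0961). Mylpf lost its call without siNC 3 or siCNN3 2, Tnni2 without siNC 3, siCNN3 1 or siCNN3 2, and Hbb-bt and Ifit3 when any 1 library other than siNC 2 was left out. Whether these differences have a part in the chaperone levels was not tested. The number of called genes, 239 with all libraries, was 20 without siNC 3, 32 without siCNN3 2, 46 without siCNN3 1, 99 without siNC 1 and 602 without siCNN3 3, and 0 chaperone genes were called under each of these.

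Among the cytosolic chaperone genes, Hspb8 differed most clearly between the groups, and none of the 10 passed the threshold. With limma 0 of the 10 were called in either direction, compared with 1.73% of all genes called higher and 0.336% lower. Of the 10, 5 had a log2 fold change above 0 and 5 below 0, and their median was 0.05 compared with 0.03 over all genes tested. At an unadjusted p below 0.05, 1 of the 10 was higher, compared with 9.94% of all genes, and 0 were lower, compared with 6.14%. A test of each gene that shares no spread between genes called 0 of all 11593 genes, so its 0 of 10 says nothing about these genes. The 3 siNC and 3 siCNN3 values did not overlap for 1 of the 10, Hspb8, which was higher in siCNN3, and 13.8% of all genes had that pattern. The opposite pattern, with every siCNN3 value below every siNC value, was seen in 0 of the 10 and in 9.35% of all genes.

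**Figure D1:**
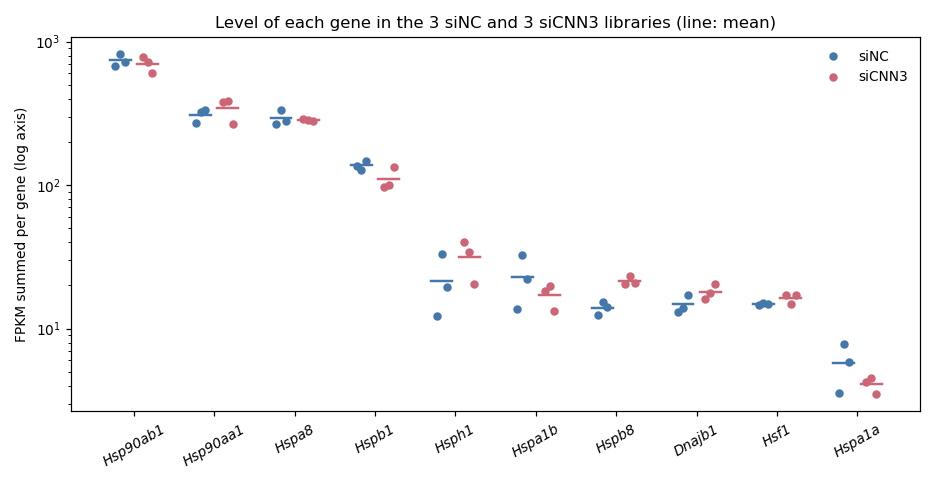
FPKM summed per gene (log axis) of the 10 genes, with 1 point per library, siNC in blue and siCNN3 in red, and a line at the mean of each group. The siCNN3 points lie above the siNC points for Hspb8 only, and the other 9 genes overlap between groups.

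The levels fell into tiers whose order was the same in both groups. Hsp90ab1 was highest, with 739.6 ± 71.7 FPKM in siNC against 702.4 ± 86.9 in siCNN3 (mean ± SD, n = 3). Hsp90aa1 and Hspa8 came next, at 308.7 ± 33.5 and 293.4 ± 35.6 FPKM in siNC, and these neighbours did not differ beyond their spread. Hspb1 lay alone below them at 137.1 ± 10.2 FPKM in siNC, and none of its 6 values reached the lowest value of Hspa8, 266.1 FPKM. Hspa1b, Hsph1, Hsf1, Dnajb1 and Hspb8 followed with siNC means from 14.01 to 22.79 FPKM, and the siNC ranges of these 5 all overlapped. Hspa1a was lowest, between 3.486 and 7.842 FPKM over the 6 libraries. Summed over the 10 genes, the level was 1418, 1719 and 1581 FPKM in siNC and 1659, 1606 and 1387 FPKM in siCNN3, or 0.44%, 0.491% and 0.456% of all matched FPKM against 0.467%, 0.458% and 0.395%. The pair of HSP90 genes made up between 63.2% and 69.7% of that sum in every library.

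**Figure D2:**
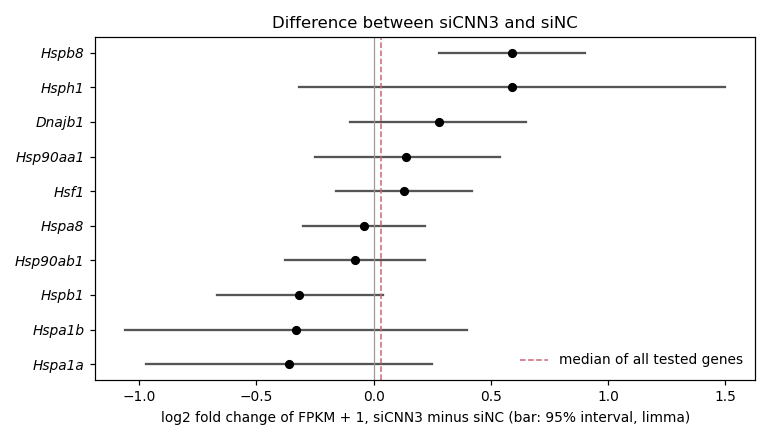
Difference between siCNN3 and siNC for each of the 10 genes, as the log2 fold change of FPKM + 1 with its 95% interval from limma (bars), with the median of all tested genes as a dashed line. The interval of Hspb8, 0.28 to 0.90, lies above 0, and those of the other 9 genes include 0.

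Hsf1 (chromosome 15, 76477422 to 76501913, plus strand of GRCm38) encodes the factor that switches on the heat-inducible genes and is itself controlled largely by trimer formation and modification of the protein. It had FPKM of 14.58, 15.08 and 14.79 in siNC, with 17.16, 14.77 and 17.14 in siCNN3. siCNN3 1 and 3 were above all siNC libraries, and siCNN3 2 lay within their range. This gave a log2 fold change of 0.13 (SE 0.121, 95% interval -0.16 to 0.42, adjusted p = 0.64). The value was 0.20 without siCNN3 2 and 0.04 after quantile normalization.

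The inducible HSP70 genes Hspa1a (chromosome 17, 34969190 to 34972156, minus strand) and Hspa1b (34956436 to 34959238, minus strand) lie next to each other and encode nearly identical chaperones. Hspa1b had FPKM of 13.75, 32.43 and 22.19 in siNC, with 18.39, 19.71 and 13.29 in siCNN3. Hspa1a had FPKM of 3.545, 7.842 and 5.894 in siNC, with 4.26, 4.554 and 3.486 in siCNN3. In both genes siNC 2 was the highest library, siNC 1 was the lowest of its group, siCNN3 3 was the lowest of all, and the groups overlapped. The CV within siNC, 41% for Hspa1b and 37.4% for Hspa1a, was about that of Hsph1 (48.6%) and far above that of Hspa8 (12.1%). The log2 fold changes were -0.33 for Hspa1b (SE 0.307, 95% interval -1.06 to 0.40, adjusted p = 0.642) and -0.36 for Hspa1a (SE 0.258, 95% interval -0.97 to 0.25, adjusted p = 0.543).

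The transcripts of the HSP70 pair share much of their sequence, so their separate levels are uncertain. Of the stretches of 100 bases in the Hspa1b transcript, 49.9% occur without change in that of Hspa1a, and 62.3% of those of 50 bases do, while 0 of either length occur in the listed transcripts of Hspa8. The ratio of Hspa1b to Hspa1a stayed between 3.77 and 4.33 in the 6 libraries, although Hspa1b itself varied between 13.29 and 32.43 FPKM. Their sum, which does not depend on how shared reads were divided within the pair apart from length scaling, was 17.29, 40.27 and 28.09 FPKM in siNC and 22.65, 24.26 and 16.78 FPKM in siCNN3. Fitted as 1 gene, the pair had a log2 fold change of -0.35 (SE 0.303, 95% interval -1.07 to 0.37, adjusted p = 0.616). Leaving out 1 library moved the value for Hspa1b to -0.64 without siNC 1, to -0.05 without siNC 2 and to -0.17 without siCNN3 3. For Hspa1a it ran from -0.62 without siNC 1 to -0.14 without siNC 2.

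Hspa8 (chromosome 9, 40800984 to 40810087, plus strand) encodes the constitutive HSC70, which folds new proteins and uncoats clathrin vesicles. It had FPKM of 266.1, 333.7 and 280.4 in siNC, with 289.5, 282.8 and 280.5 in siCNN3. The siCNN3 libraries lay within the siNC range and close together, with a CV of 1.64%. The log2 fold change was -0.04 (SE 0.11, 95% interval -0.30 to 0.22, adjusted p = 0.896). It was 0.06 without siNC 2 and -0.19 after quantile normalization (adjusted p = 0.373). Of the 10 genes Hspa8 had the narrowest interval, so a fall beyond 0.30 or a rise beyond 0.22 on the log2 scale lies outside it. The inducible genes taken over Hspa8 in the same library, a measure that library scaling does not touch, gave ratios of 0.065, 0.121 and 0.1 in siNC and 0.0782, 0.0858 and 0.0598 in siCNN3. The ratios overlapped, and their log2 difference of -0.32 had p = 0.4 in a two-sided exact permutation test of 3 against 3 libraries, in which the smallest possible p is 0.1. The difference was -0.13 without siNC 2, -0.17 without siCNN3 3 and -0.58 without siNC 1.

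Hsph1 (chromosome 5, 149614287 to 149636376, minus strand) encodes HSP110, a nucleotide exchange factor that helps HSP70 pull apart aggregates. It had FPKM of 12.32, 32.91 and 19.36 in siNC, with 40.37, 34.35 and 20.3 in siCNN3. siCNN3 1 and 2 were above every siNC library, but siNC 2 came close to them and siCNN3 3 was near siNC 3. The log2 fold change was 0.59, as large as that of Hspb8, with an SE of 0.383, a 95% interval from -0.32 to 1.5 and an adjusted p of 0.506. It fell to 0.26 without siNC 1 and reached 0.93 without siNC 2, a wider range than that of any other of the 10 genes.

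Dnajb1 (chromosome 8, 83608193 to 83612653, plus strand) encodes the inducible HSP40 that hands clients to HSP70. It had FPKM of 13.09, 14 and 17.24 in siNC, with 16, 17.69 and 20.57 in siCNN3. The lowest siCNN3 library was above siNC 1 and 2 and below siNC 3. The fitted log2 fold change was 0.28 (SE 0.157, 95% interval -0.10 to 0.65, adjusted p = 0.437). Unlike Hspa1a, Hspa1b and Hsph1, Dnajb1 was not lowest of its group in siCNN3 3, where it had the highest of its 6 values.

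The HSP90 genes did not pass the threshold either. Hsp90aa1 (chromosome 12, 110690605 to 110702728, minus strand), the stress-inducible isoform, had FPKM of 270.5, 322.3 and 333.2 in siNC, with 377, 387.6 and 268.8 in siCNN3. siCNN3 1 and 2 were above every siNC library, and siCNN3 3 was the lowest of the 6. For Hsp90aa1 the log2 fold change was 0.14 (SE 0.167, 95% interval -0.25 to 0.54, adjusted p = 0.718). Leaving out 1 library moved it between 0.05, without siNC 1 or siCNN3 2, and 0.31, without siCNN3 3 (adjusted p = 0.179), and it was 0.07 without siCNN3 1 and 0.01 after quantile normalization. Hsp90ab1 (chromosome 17, 45567775 to 45573271, minus strand), the constitutive isoform, had FPKM of 676, 817.3 and 725.5 in siNC, with 778.5, 721.1 and 607.6 in siCNN3. Its groups overlapped, with siNC 2 highest and siCNN3 3 lowest, and the log2 fold change was -0.08 (SE 0.126, 95% interval -0.38 to 0.22, adjusted p = 0.803). Without siCNN3 3 its value was 0.02.

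Within a library, the ratio of inducible to constitutive HSP90 was 0.4, 0.394 and 0.459 in siNC and 0.484, 0.538 and 0.442 in siCNN3. siCNN3 1 and 2 had the highest ratios, and siCNN3 3 fell below siNC 3. The log2 difference was 0.22, with p = 0.2 in the two-sided exact permutation test. The 3 listed transcripts of Hsp90ab1 share 0 stretches of 50 bases with the 4 listed of Hsp90aa1.

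The small heat shock genes held the clearest difference among the 10. Hspb8 (chromosome 5, 116408491 to 116422864, minus strand), the partner of BAG3 in chaperone-assisted autophagy, had FPKM of 12.4, 15.41 and 14.21 in siNC, with 20.49, 23.2 and 20.88 in siCNN3. Every siCNN3 library was above every siNC library, with means of 21.52 ± 1.47 and 14.01 ± 1.52 FPKM (SD, n = 3), and the gap of the group means was several times the SD within either group. The log2 fold change was 0.59 (SE 0.132, 95% interval 0.28 to 0.90), a 1.5-fold higher level with an interval of 1.21 to 1.87 on the scale of FPKM + 1. The unadjusted p of limma was 0.00304 and the adjusted p was 0.0836, so Hspb8 was not called. Over the alternatives its log2 fold change stayed between 0.50 and 0.66 and its adjusted p between 0.0505 and 0.338. The myotube marker, interferon response, and blood and immune marker sums, the last mostly globin, also separated the groups in every library. Their part in the Hspb8 level was not tested. In RNA of whole cultures, more cells that express a gene and more RNA of it per cell cannot be told apart.

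Hspb1 (chromosome 5, 135887919 to 135889563, plus strand), which encodes HSP27, had FPKM of 135.7, 127.6 and 147.9 in siNC, with 97.27, 100.3 and 134.6 in siCNN3. siCNN3 1 and 2 were below every siNC library, while siCNN3 3 lay within the siNC range. The log2 fold change was -0.32 (SE 0.149, 95% interval -0.67 to 0.04, adjusted p = 0.356). Leaving out 1 library moved it between -0.23, without siCNN3 1 (adjusted p = 0.729), and -0.47, without siCNN3 3 (adjusted p = 0.0657). The ratio of Hspb1 to Hspb8 within a library, chosen after their values were seen and so given without a test, was 10.9, 8.28 and 10.4 in siNC and 4.75, 4.33 and 6.45 in siCNN3.

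The gene sums hide shifts between deposited transcripts, which were large for Hspa8, Hsph1 and Hsp90aa1. Since FPKM scale by transcript length, the sums themselves also depend in part on this division. Hspa8-202 held 0%, 43.9% and 87.9% of the Hspa8 level in siNC and 0%, 0% and 52.8% in siCNN3, and Hspa8-201 held nearly all of the rest. Hsph1-209 held 0%, 80.7% and 63.9% of the Hsph1 level in siNC and 0%, 0% and 78.7% in siCNN3. In siNC 1 all of Hsph1 was assigned to Hsph1-211, which held 19.3% and 0.54% in siNC 2 and 3 and 6.81%, 11.5% and 0.00334% in siCNN3. Hsp90aa1-202 held 10.9%, 69.1% and 15.9% of Hsp90aa1 in siNC and 82%, 51.5% and 96.9% in siCNN3. For Hspa8-202 and Hsph1-209, each group thus held libraries with none of the transcript and libraries with much of it. Smaller shifts occurred in other genes, with Hsf1-205 at 26.6% to 61.1% of Hsf1 and Hspb1-202 at 0.787% to 19.9% of Hspb1 over the 6 libraries.

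**Figure D3:**
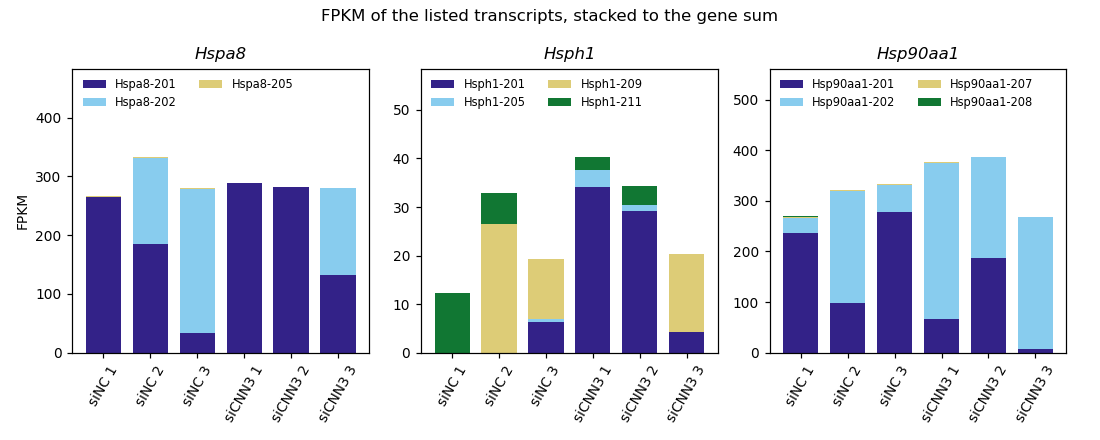
FPKM of each listed transcript of Hspa8, Hsph1 and Hsp90aa1 in the 6 libraries, stacked to the gene sum. The height of the Hspa8 bars stays between 266.1 and 333.7 FPKM while the share of Hspa8-202 goes from 0% to 87.9%.

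These transcripts are hard to tell apart by sequence. Of the stretches of 100 bases, 94.9% of those in Hspa8-202 occur in Hspa8-201, 84.6% of those in Hsph1-209 occur in Hsph1-201 and 95% of those in Hsp90aa1-201 occur in Hsp90aa1-202. Over the deposited table, 238 transcripts reach 10 FPKM in 1 library while a second library of that group lists them at 0, and Hspa8-202 and Hsph1-209 are among them, so a listed 0 here can be a failed estimate. Fitted each on its own, 0 of the 26 tested transcripts of the 10 genes were called, while 117 of all 21658 were. The 3 with an unadjusted p below 0.05 were Hsp90aa1-202 (log2 fold change 1.82, adjusted p = 0.442), Hsph1-201 (3.20, adjusted p = 0.344) and Hspb8-201 (0.59, adjusted p = 0.19). Hspb8, Hspa1a and Hspa1b have 1 listed transcript each and so are free of this division.

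Other genes of the heat shock system were not called in either direction, and more of their log2 fold changes lay above 0 than below. Of the 61 reported here that are not among the 10, 0 were called by limma, compared with 1.73% of all genes called higher and 0.336% lower. An unadjusted p below 0.05 was found for 9 of them (14.8%), 7 higher and 2 lower, compared with 16.1% of all genes. The test that shares no spread called 0 of all genes tested. The log2 fold change was above 0 for 47 and below 0 for 14, and the median was 0.18 compared with 0.03 over all genes tested, of which 6258 were above 0 and 5335 below. Their groups did not overlap for 13 genes higher and 5 lower in siCNN3, compared with 13.8% and 9.35% of all genes. Of 13 other heat-inducible genes, 11 were above 0, with a median of 0.25, and the groups did not overlap for 1 higher, Zfand2a, and 1 lower, Bag3. The largest value among these was that of Zfand2a, whose product acts at the proteasome under stress, with 5.991, 10.68 and 8.763 FPKM in siNC against 17.94, 16.35 and 11.67 in siCNN3. All siCNN3 libraries were above all siNC libraries, and the log2 fold change was 0.80 (SE 0.241, adjusted p = 0.17). In that list Bag3, whose product binds HSPB8, had FPKM of 34.83, 42.02 and 36.23 in siNC, with 33.35, 33.28 and 34.02 in siCNN3, and a log2 fold change of -0.16 (adjusted p = 0.551). The small heat shock gene Cryab had a log2 fold change of 0.09 (adjusted p = 0.801).

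The partners that act directly with the 10 genes were not called in either direction. Of 22 HSP70 partners tested, 16 were above 0 and 6 below, with a median of 0.11. Their summed level overlapped between the groups, with 849.8, 1032 and 958 FPKM in siNC against 1041, 1042 and 944.6 in siCNN3. Of the 22, the groups did not overlap for 5 higher and 3 lower, compared with 13.8% and 9.35% of all genes. The largest value was that of Dnajc2, a ribosome-bound HSP40, with 4.156, 8.8 and 8.398 FPKM in siNC against 19.01, 21.29 and 10.77 in siCNN3 (log2 fold change 1.16, adjusted p = 0.151). Of 17 HSP90 co-chaperones, 14 were above 0, with a median of 0.17. Groups did not overlap for 2 of the 17 higher and 0 lower, compared with the same 13.8% and 9.35%. Their sums overlapped too, with 623.2, 787 and 732.4 FPKM in siNC against 901.9, 868.3 and 695.4 in siCNN3. Of 4 other small heat shock genes 3 were above 0, with a median of 0.14. The list of CCT and prefoldin genes, whose products fold actin and tubulin, had 11 of 13 above 0 and a median of 0.21. The summed level of those 13 was 1339, 1418 and 1450 FPKM in siNC and 1586, 1580 and 1507 FPKM in siCNN3, so that all siCNN3 libraries were higher. Groups did not overlap for 5 of these genes, all higher in siCNN3, a pattern of 13.8% of all genes, and for 0 in the lower direction (9.35% of all genes). In the list of other heat shock factors and their regulator, Hsf2 had a log2 fold change of 0.39 (adjusted p = 0.202), Hsf4 of -0.72 (adjusted p = 0.241) and the HSF1 inhibitor Hsbp1 of -0.23 (adjusted p = 0.394). Zfand2a, Bag3, Cryab, Dnajc2, Hsf2, Hsf4 and Hsbp1 are named here after their values were seen.

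**Figure D4:**
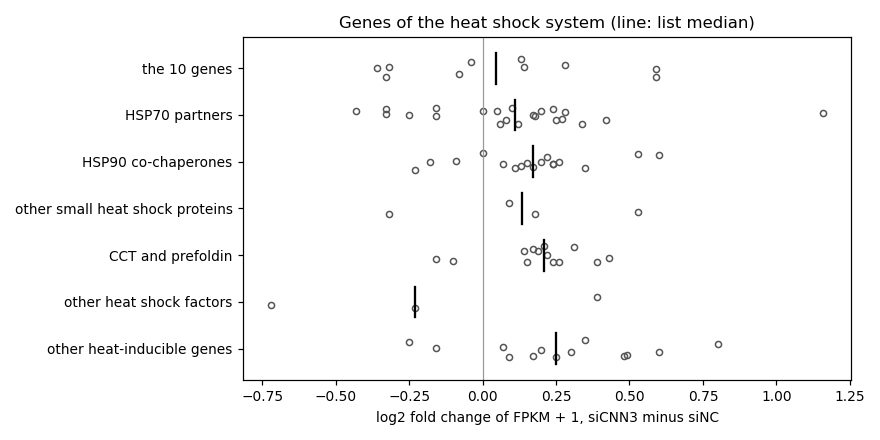
Log2 fold change of FPKM + 1 for the 10 genes and for each list of other heat shock system genes, with 1 point per gene and a line at the list median. The medians run from 0.05 for the 10 genes to 0.25 for the other heat-inducible genes, apart from the list of Hsf2, Hsf4 and Hsbp1 at -0.23, and none of the genes shown was called.

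Within each group the chaperones were lowest in certain libraries, and all genes shared much of this pattern. siNC 1 was the lowest siNC library for 9 of the 10 genes and siCNN3 3 the lowest siCNN3 library for 6 of the 10. With the HSP70 partners, HSP90 co-chaperones, other small heat shock genes and CCT and prefoldin genes added, this was so for 47 (73.4%) and 38 (59.4%) of 64 genes, compared with 58.8% and 48.4% of all genes tested. As log2 values centred on the mean of their own group, the 64 genes had medians of -0.13, 0.10 and 0.04 in siNC 1 to 3 and of 0.06, 0.04 and -0.10 in siCNN3 1 to 3. Over all genes these medians were -0.11, 0.06, 0.06, 0.02, 0.03 and -0.04. The FPKM of the tested genes summed to 321885 in siNC 1, against 346217 to 354925 in the other libraries, and its median-of-ratios size factor was 0.912, against 0.993 to 1.04. With siNC 1 and siCNN3 3 left out together, a choice made after the data were seen, 0 of the 10 genes were called, and the lowest adjusted p values were 0.0667 for Hspb8 and for Hspb1. What the libraries siNC 1 and siCNN3 3 share was not tested, and the sources used here give no preparation batch.

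**Figure D5:**
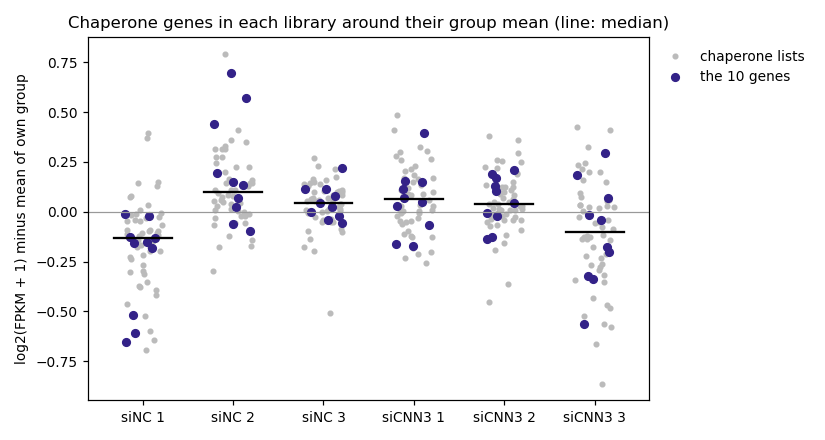
Log2(FPKM + 1) of the 10 genes (dark) and of the chaperone lists (grey) in each library, minus the mean of the gene in its own group, with a line at the median of the 64 genes. The medians of siNC 1 and siCNN3 3, at -0.13 and -0.10, are the lowest of the 6.

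The genes whose pattern over the 6 libraries was most like that of Hspb8 were Ints12, Brd3os and Lin52, by the root mean square difference of log2 values taken relative to the siNC mean. The differences were 0.051, 0.062 and 0.073. Ints12 had FPKM of 7.86, 10.75 and 10.02 in siNC, with 13.59, 15.44 and 13.87 in siCNN3. This selection largely fixes that all 3 had groups that did not overlap and were higher in siCNN3, by 0.55 to 0.64 on the log2 scale. None of them was called.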

How the data were processed

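The FPKM values were made by the authors, whose sequencing results were analysed by a service company, and were deposited for 24023 Ensembl transcripts in 6 libraries. The submitters' processing notes name Bowtie 0.12.2 and the builds mm8 and mm10 with no role, and the program that estimated FPKM and the annotation are not given in the sources used here. Read numbers are not given, so the depth is unknown and no counting error can be stated. Identifiers were matched without version to GENCODE M21 transcripts of GRCm38, which placed 23949. The 74 others held 0.159% to 0.22% of a library's FPKM and were left out.

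FPKM were summed per gene symbol, genes with a mean under 0.5 FPKM were removed, a pseudocount of 1 was added, and limma 3.58.1 (R 4.3.3) was run on the log2 values, with its moderated test, a trend of variance with level and p-values adjusted by Benjamini-Hochberg over 11593 genes. The pseudocount understates changes of low genes such as Hspa1a. Ratios within a library were compared by an exact permutation test. The fit was tested on simulated data. Promoters came from RefSeq (GRCm38.p6), and transcript stretches from GENCODE. Python 3.11.15 with pandas 2.3.3, scipy 1.17.1 and matplotlib 3.10.9 was used.

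The genes and lists were chosen with earlier results of these data known. Some genes are in more than 1 list. Certain list genes are not reported here, and the counts leave them out. All 10 genes are named, with the 3 genes most like the one with the largest change. The rule also covers up to 3 called genes of each list. Alternatives were another pseudocount, other filters and scalings, the replicate block, limma without a trend, a Student's test, single transcripts, the HSP70 pair summed, and each library left out.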

Additional observations from a re-analysis of the deposited data

How the results depend on the processing

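The count of called genes, 239, was 104 with each transcript on its own and 0 with a Student's test of each gene. It ran from 20 without siNC replicate 3 to 875 without siNC replicate 1 and siCNN3 replicate 3, and was 602 without siCNN3 replicate 3 alone. Calls split into 200 higher and 39 lower (83.7% higher), into 199 and 93 after quantile normalization (68.2%), and into 576 and 299 with siNC replicate 1 and siCNN3 replicate 3 left out (65.8%). The number of the 10 chaperone genes called was 0 under every alternative run. At most 16 alternatives were run per gene. Of the 10 genes, 8 kept their sign in all of them, while Hspa8 changed to 0.06 without siNC replicate 2 and Hsp90ab1 to 0.02 without siCNN3 replicate 3. Over the fits with libraries left out, the value ran from -0.11 to 0.06 for Hspa8 and from -0.16 to 0.02 for Hsp90ab1. Hspa1a, with a mean under 5 FPKM, was not in the fit with that filter. The ratios within a library kept their direction under each alternative run, and with 1 library left out the log2 difference ran from -0.58 to -0.13 for the inducible HSP70 pair over Hspa8 and from 0.15 to 0.29 for Hsp90aa1 over Hsp90ab1. With only the transcript of highest mean of each gene, the log2 difference was 1.92 for Hsp90aa1 over Hsp90ab1 and -1.27 for the inducible HSP70 pair over Hspa8, compared with 0.22 and -0.32. That setting keeps Hsp90aa1-202, with 10.9% to 96.9% of its gene over the libraries, and Hspa8-201, with 11.7% to 99.6%. Both values thus depend on how a gene was divided between transcripts of much the same sequence. Why that division varied, and the causes of the other changes in this section, were not tested.

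With the replicate number as a block, 68 genes were called, 62 of them higher, and the adjusted p of Hspb8 was 0.208. The calls of Hbb-bt and Ifit3 were lost with the block (adjusted p = 0.0556 and 0.0678) and without a trend (0.0577 and 0.0548), that of Hbb-bt with no filter (0.0506) and that of Ifit3 with a pseudocount of 0.1 (0.0545). The replicate numbers were not taken to pair the libraries, since deviations from the group means in libraries of the same number correlated over genes at -0.278, 0.314 and -0.0247. Libraries of different numbers reached 0.442, for siNC 1 with siCNN3 3, and -0.445, for siNC 2 with siCNN3 3. If libraries of the same number were paired all the same, both ratios had p = 0.5 in an exact test that flips the signs of the differences within pairs. That test has fewer outcomes than the exact permutation test of unpaired libraries, so its smallest possible p lies above the 0.1 of the latter. The depth is unknown, and a p above the threshold does not show that a gene was the same in both groups.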
